A study of Mus musculus with 18 samples.

Results

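The genes Tat, Hpd, Hgd, Gstz1, Fah, Tdo2, Kmo, Kynu and Haao encode enzymes that break down the amino acids tyrosine and tryptophan, and their RNA was followed in hepatocytes of 8 groups of mice. The 9 genes were chosen by name, as the rows of the count table of young and old mice that carry these symbols, and were read by the same Ensembl identifiers from the table of Smo-floxed mice. They are 9 of the 31053 genes listed there, and all 9 passed the filter on low counts in both tables. Young and Old mice were C57Bl/6J wild-type animals of 3 and 24 months that received no virus, and Young PH and Old PH mice were their counterparts 48 h after partial hepatectomy (PH), the removal of 70% of the liver, after which hepatocytes of the remnant divide (n = 3 mice in each of these 4 groups). Smo (+) and Smo (−) mice were 3-month-old males on a C57Bl/6J background with floxed Smo alleles. Smo encodes Smoothened, the membrane protein that passes on Hedgehog signals. All of these mice received an AAV8 virus with the hepatocyte promoter TBG, which carried luciferase in Smo (+) mice (n = 1 at each time) and Cre recombinase in Smo (−) mice (n = 2 at each time), so that only hepatocytes were to lose Smo. PH followed the virus by 7 days, and Smo (+) PH and Smo (−) PH mice were again sampled at 48 h. Hepatocytes were isolated by collagenase perfusion and polyadenylated RNA was sequenced, with 1 library for each mouse. The comparisons ask how the genes differed with age, how they responded to PH at each age, and how they differed when hepatocytes lacked Smo.

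Levels are given as CPM, read pairs of a gene relative to the library total after TMM scaling, which sets the libraries to a common level over most genes. A gene is called higher or lower where the quasi-likelihood test of edgeR gave a Benjamini-Hochberg adjusted p under 0.05 over all genes tested, and each change is a log2 fold change followed by its standard error (SE). The 95% interval of a log2 fold change reaches 1.96 SE to each side, a normal approximation. It is narrower than the few degrees of freedom of the test would give. Depth ranged from 17089525 to 36646939 read pairs in genes in young and old mice and from 16835686 to 19151731 in Smo-floxed mice. Young and old libraries also differed in make-up: 25.2% to 33.9% of counted pairs lay outside genes at the young age with or without PH, against 2.03% to 3.74% at the old age, and Malat1, a nuclear long noncoding RNA, took 3487 to 6004 CPM of gene counts against 18.2 to 165. The part that these differences play in any comparison of ages was not tested, and age and library make-up cannot be told apart here. The hepatocyte transcript Alb (albumin) was at 29691 to 127076 CPM over all libraries, so the labelled cell type carried its defining marker, and in young and old mice the summed CPM of 7 macrophage markers was 26.4 to 409.8, higher in Old 2 and Old 3 (409.8 and 392) than in Old 1 (75.4) or Young (50.8 to 77.6). Because isolated cells were sequenced in bulk, fewer hepatocytes and less RNA in each hepatocyte cannot be told apart. Smo itself was at 6.17 CPM in Smo (+) and 11.0 in Smo (+) PH, and at 1.42, 3.29, 1.51 and 1.20 CPM in the Smo (−) and Smo (−) PH libraries, all below the lower Smo (+) value, but the difference did not pass at 0 h (edgeR adjusted p = 0.0531) or after PH (edgeR adjusted p = 0.0539). Together the 9 genes took 0.375% to 0.614% of gene counts in young and old libraries.

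Tyrosine is broken down almost entirely in the liver. Its amino group is removed by tyrosine aminotransferase (Tat), the product is oxidised to homogentisate by Hpd, the ring is opened by Hgd, the isomerase Gstz1 turns the open chain, and Fah splits it into fumarate and acetoacetate. Tryptophan enters the kynurenine pathway when Tdo2 opens its indole ring, and in hepatocytes Tdo2 sets the pace of the pathway. Kmo, an enzyme of the outer mitochondrial membrane, then hydroxylates kynurenine, Kynu cleaves the side chain, and Haao opens the remaining ring to give the precursor of quinolinate and NAD. Tat and Tdo2 are classic targets of glucocorticoids in liver, and Kmo and Kynu are also expressed by macrophages.

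The genes lie on 9 chromosomes (GRCm38, GENCODE release 21 of mouse). The tyrosine genes are Tat at chr8:109990437-109999803 (+), Hpd at chr5:123171807-123182727 (−), Hgd at chr16:37580153-37632020 (+), Gstz1 at chr12:87147165-87164723 (+) and Fah at chr7:84585159-84606722 (−). The tryptophan genes are Tdo2 at chr3:81957090-81976202 (−), Kmo at chr1:175620381-175662116 (+), Kynu at chr2:43555329-43682715 (+) and Haao at chr17:83831156-83847963 (−). Of Gstz1's exons, 9.14% is shared with Pomt2 on the opposite strand and 3.07% with the antisense gene Gm6566, so that its counts may hold reads of these genes if strand was not used. The other members share no exon bases with another gene.

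Hgd and Tat, enzymes of the same pathway, differed in opposite directions with age on the CPM scale, and the 250 bases before their RefSeq start sites (GRCm38.p6) are shown for that reason. Neither window holds an annotated exon of its gene. Capitals mark matches, on either strand, to any of 5 short motifs. These were the TATA box with the letters TATAAA, a core HNF1 motif with GTTAAT, a core glucocorticoid receptor motif with TGTTCT, the C/EBP motif TTGCNNAA and a core HNF4 motif with CAAAGTCC.
Tat, chr8:109990186-109990435, + strand: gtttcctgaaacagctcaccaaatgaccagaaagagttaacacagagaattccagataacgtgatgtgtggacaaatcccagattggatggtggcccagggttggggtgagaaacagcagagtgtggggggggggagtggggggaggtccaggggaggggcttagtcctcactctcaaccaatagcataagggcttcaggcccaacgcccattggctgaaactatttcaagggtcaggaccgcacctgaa
Hgd, chr16:37579903-37580152, + strand: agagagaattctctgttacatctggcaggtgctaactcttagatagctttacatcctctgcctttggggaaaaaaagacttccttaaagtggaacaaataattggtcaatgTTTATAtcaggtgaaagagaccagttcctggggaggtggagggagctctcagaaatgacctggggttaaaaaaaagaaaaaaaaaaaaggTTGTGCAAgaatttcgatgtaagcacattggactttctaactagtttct
The Hgd window holds TTTATA, the reverse complement of the TATA box, starting 139 bases before the start site, and TTGTGCAA, a match to the C/EBP motif on the reverse strand, starting 49 bases before it. The matches do not overlap, and no match was found in the Tat window. Among 32851 mouse promoter windows of this length, 12.4% hold the TATA box, 6.43% the HNF1, 16.1% the glucocorticoid receptor, 9.56% the C/EBP and 1.2% the HNF4 letters. Promoter sequences were matched for 8 of the 9 genes, with 9 windows in all because Gstz1 has a second start site. Beyond Hgd, matches were found in Tdo2 (TATAAA, 229 bases before its RefSeq start site) and in Haao (ATTAAC at 41 and TGTTCT at 164 bases). All 250 bases of the Tdo2 window and of the Haao window lie in annotated exon of the gene itself, so these matches are within transcribed sequence.

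Per transcript length (TPM, where each library's length-corrected values add to the same sum, from the longest principal transcript), Hpd and Tat were the highest of the 9 genes in Young hepatocytes, at 2009 ± 342 and 1804 ± 147 TPM (SD, n = 3). Fah (603 ± 107), Gstz1 (526 ± 94.1), Haao (489 ± 78.5), Hgd (476 ± 47.2) and Tdo2 (456 ± 27.4) formed a middle group whose neighbours in this order overlapped within 1 SD. Kmo (207 ± 21.2) and Kynu (204 ± 4.66) were lowest. TPM and CPM differ in how a library is scaled, and beside the CPM values below the TPM are given where they go the other way.

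With age, 4 of the 9 genes were called higher and 2 lower in Old than in Young hepatocytes. Hgd, Gstz1, Tdo2 and Haao were 1.42 to 1.57 times as high in Old, while Tat and Kynu were 1.54-fold and 1.53-fold lower. Background is high in this comparison: 63.0% of 14554 tested genes were called, 29.3% higher and 33.7% lower, so 6 of 9 is near the share over all genes and is not a result about these genes. The median log2 fold change was 0.51 over the 9 genes and −0.05 over all genes.

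Of the tyrosine enzymes, Tat was at 1948, 1701 and 2051 CPM in Young 1 to 3 and at 1003, 1235 and 1457 CPM in Old 1 to 3. All Old libraries were below all Young libraries, with a log2 fold change of −0.63 (SE 0.26, edgeR adjusted p = 0.0486). That call was lost in 12 of 20 alternatives, the removal of any 1 Young or any 1 Old library among them (edgeR adjusted p up to 0.26). Hgd was at 373, 314 and 391 CPM in Young and 627, 400.0 and 503 CPM in Old, again without overlap (0.51, SE 0.19, edgeR adjusted p = 0.035). Gstz1 was at 421, 302 and 435 CPM in Young and 644, 422 and 593 CPM in Old, where Old 2 lay among the Young values (0.52, SE 0.18, edgeR adjusted p = 0.0224). With library totals in place of TMM both calls were lost (Hgd 0.29, edgeR adjusted p = 0.147, and Gstz1 0.31, edgeR adjusted p = 0.136). Without Young 2 the calls of Hgd and Gstz1 were lost, and that of Hgd also without Young 1 or Old 1. The difference of Hpd was 0.51 (SE 0.29, edgeR adjusted p = 0.139) and that of Fah 0.40 (SE 0.18, edgeR adjusted p = 0.0677), and neither passed. In Old, Hpd ranged from 1074 to 2570.0 CPM, with Old 1 highest and Old 2 lowest for Hpd, Hgd, Gstz1, Fah and Haao. On the TPM scale Hgd and Gstz1 were not higher in Old: Hgd was at 476 ± 47.2 TPM in Young and 451 ± 65.0 in Old, and Gstz1 at 526 ± 94.1 and 507 ± 104 (SD, n = 3). Hpd (2009 ± 342 and 1876 ± 556 TPM) and Fah (603 ± 107 and 532 ± 89.3 TPM) were not higher in Old on that scale either.

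Of the tryptophan enzymes, Tdo2 was at 730.1, 646 and 703 CPM in Young and 1167, 1192 and 879.9 CPM in Old. The groups did not overlap (0.64, SE 0.17, edgeR adjusted p = 0.00544). Haao was at 328, 241 and 330.2 CPM in Young and 527, 383 and 498 CPM in Old, also apart (0.65, SE 0.16, edgeR adjusted p = 0.00361). In TPM both differences were small, with Tdo2 at 456 ± 27.4 in Young and 478 ± 76.0 in Old and Haao at 489 ± 78.5 and 517 ± 93.1 (SD, n = 3). Kynu was at 244, 239 and 259 CPM in Young and only 166, 159 and 159 CPM in Old (−0.61, SE 0.14, edgeR adjusted p = 0.00145), and on the TPM scale it was lower too (204 ± 4.66 against 90.5 ± 12.9). Kmo lay at 215 to 268 CPM in Young and 248 to 261 in Old (0.04, SE 0.13, edgeR adjusted p = 0.825), but in TPM it was at 207 ± 21.2 in Young and 144 ± 19.9 in Old. Macrophage markers differed between Old 1 and the other Old libraries (75.4 against 392 and 409.8 CPM), and Kynu was at 166 CPM in Old 1 and 159 in both others. The part of macrophages in the Kynu level was not tested. The Tdo2, Haao and Kynu calls were kept in all 20 alternatives. Of all tested genes, 66.2% had non-overlapping groups in this comparison, against 5 of the 9 members.

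Among 13 tested genes of other steps around tyrosine, 8 were higher and 2 lower in Old, at a median of 1.06. Those with the smallest p belong to the making and recycling of tetrahydrobiopterin, an enzyme cofactor: Spr (1.72, SE 0.16), Gchfr (1.87, SE 0.19), Qdpr (1.40, SE 0.19) and Pts (1.11, SE 0.15), with edgeR adjusted p from 9.59e-07 to 2.73e-05. Among 14 tested genes of other steps around tryptophan, 2 were higher, among them Qprt, which uses quinolinate (0.67, SE 0.17, edgeR adjusted p = 0.00293), and 1 was lower, the dioxygenase Ido2 (−0.56, SE 0.15, edgeR adjusted p = 0.00618). Of 34 tested genes for the breakdown of other amino acids, 20 were higher and 2 lower (median 0.40), with Sds, the serine dehydratase, at −1.86 (SE 0.19, edgeR adjusted p = 1.87e-06).

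**Figure D1:**
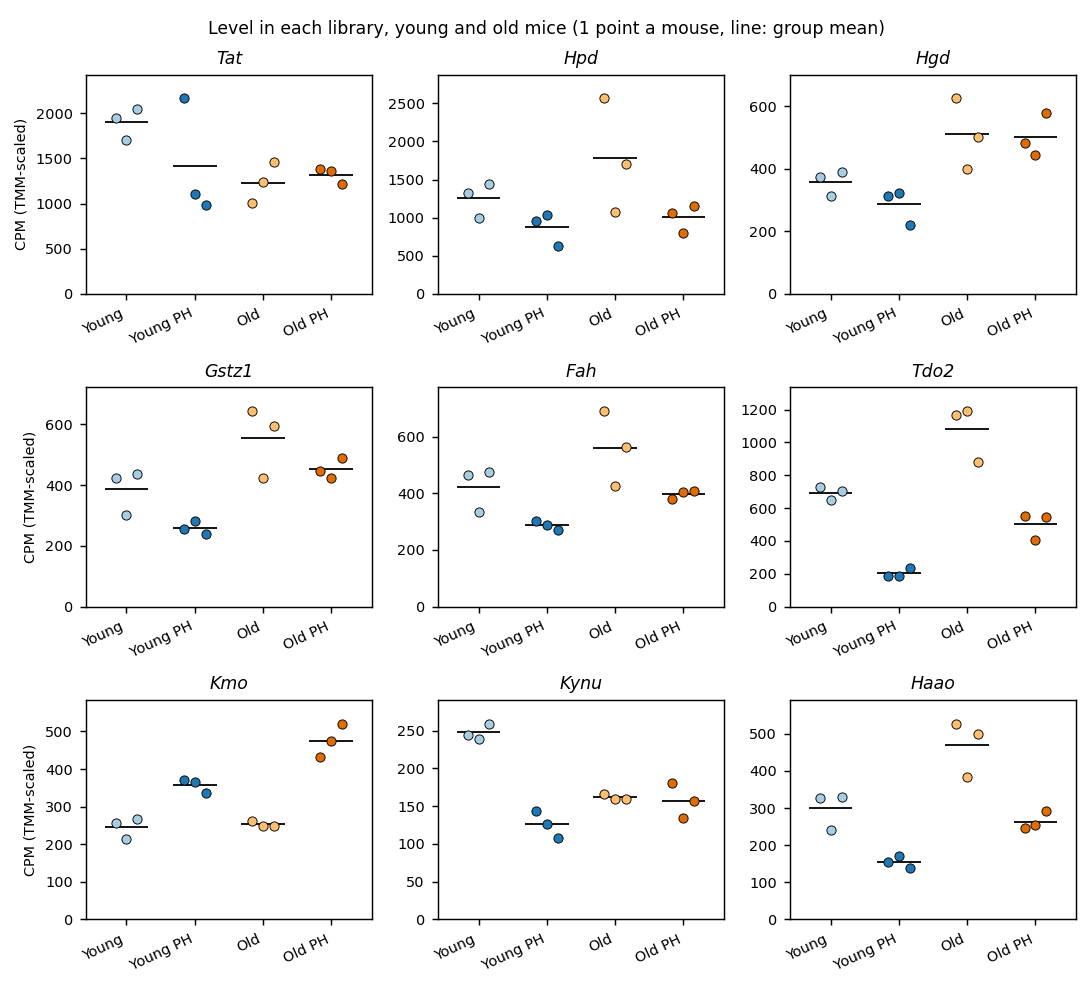
Level of each of the 9 genes in CPM (TMM-scaled, linear axis from 0) in the 12 libraries of young and old mice, 1 point for each mouse and a line at the group mean (n = 3). After PH, Tdo2 and Haao sit below and Kmo above the libraries of the same age before PH, and Kynu is at 239 to 259 CPM in Young and at 108 to 180.4 CPM in the other groups.

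In young mice, 5 of the 9 genes were lower 48 h after PH (Young PH against Young) and 1, Kmo, was higher. Tdo2 was 3.38-fold lower, Kynu 1.96-fold, Haao 1.94-fold and Fah 1.48-fold, and Gstz1 fell by 0.58 on the log2 scale. Over all genes 34.2% were called, 17.8% higher and 16.4% lower, and with library totals in place of TMM the share of calls that were higher moved from 52.1% to 76.7%. The median log2 fold change was −0.56 over the 9 genes and −0.01 over all genes.

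Tdo2 was at 189, 188 and 238 CPM in Young PH, all far below the 646 to 730.1 CPM of Young. Its log2 fold change was −1.76 (SE 0.18, edgeR adjusted p = 5.64e-06). Haao was at 154, 171 and 139.8 CPM against 241 to 330.2 (−0.95, SE 0.17, edgeR adjusted p = 0.000562), and Kynu at 144, 126 and 108 CPM against 239 to 259 (−0.97, SE 0.14, edgeR adjusted p = 0.00011). None of these groups overlapped, as was so for 55% of all tested genes in this comparison. Kmo, which works between Tdo2 and Kynu, was at 372, 365 and 337 CPM against 215 to 268 (0.54, SE 0.13, edgeR adjusted p = 0.0057), so the Kmo transcript rose while those of the enzymes before and after it fell. The calls of Tdo2, Haao, Kynu and Kmo held in all 20 alternatives. On the TPM scale the directions were the same, with Tdo2 at 160.5 ± 29.2, Haao at 300.2 ± 30.6, Kynu at 123 ± 11.6 and Kmo at 355 ± 10.4 TPM in Young PH (SD, n = 3).

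Of the 5 tyrosine genes, 2 were called lower. Gstz1 was at 256, 281 and 238 CPM in Young PH (−0.58, SE 0.18, edgeR adjusted p = 0.0235) and Fah at 302, 288 and 271 CPM against 333 to 476 in Young (−0.56, SE 0.18, edgeR adjusted p = 0.0278), without overlap. Their calls were lost in 5 and 6 of 20 alternatives, among them library totals and the removal of Young 1, Young 3, Young PH 1 or Young PH 3, with edgeR adjusted p up to 0.156 and 0.16. Hpd (−0.52, SE 0.29, edgeR adjusted p = 0.189) and Hgd (−0.33, SE 0.19, edgeR adjusted p = 0.212) did not pass. Tat was at 2169.8, 1111 and 981 CPM in Young PH, so that 1 mouse lay above all Young libraries and the others well below them (−0.42, SE 0.26, edgeR adjusted p = 0.235). Without Young PH 1 its log2 fold change was −0.86 and was called (edgeR adjusted p = 0.00615). In the other lists, 9 of 14 tryptophan genes were lower and 1 was higher: Ido2 (−1.56, SE 0.16) and Afmid, the formamidase that follows Tdo2 (−1.70, SE 0.32), were lower, and Acmsd, which diverts the pathway from quinolinate, was higher (1.70, SE 0.25), with edgeR adjusted p of 0.00095 or less. Of 13 other tyrosine genes 4 were lower, among them Pts, Ddc and Qdpr, and 0 higher, and of 34 genes for other amino acids 25 were lower and 1 higher, with a median of −0.81.

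In old mice (Old PH against Old), 4 genes were lower and 1 higher. Summed markers of endothelial and stellate cells were also lower after PH. Endothelial sums were 59.8 to 166 CPM in Old and 29.7 to 39.6 in Old PH. They were 116 to 188 in Young and 78.5 to 94.5 in Young PH. Stellate sums were 55.6 to 121 CPM in Old and 31.0 to 46.3 in Old PH. They were 55.9 to 92.8 in Young and 43.1 to 54.0 in Young PH. The hepatocyte sum was lower too, at 121255 to 166841 CPM in Old and 57626 to 82101 in Old PH. Of its 5 markers, Alb, Ttr and Apoa1 were lower in Old PH. Hnf4a (452 to 643 CPM in Old, 568 to 587 in Old PH) and Cps1 (3405 to 3813 and 3015 to 5708) overlapped. In young mice Hnf4a was instead higher after PH (729 to 819 CPM in Young, 821 to 947 in Young PH). So was Col1a1 of the stellate sum (0.71 to 0.84 and 2.80 to 4.23). Cholangiocyte sums were higher in Old PH (18.7 to 40.9 CPM) than in Old (9.09 to 17.0). These sums were almost all Sox9 and Spp1, with Krt19, Krt7 and Epcam each at 0.43 CPM or less. Macrophage sums overlapped, at 50.8 to 77.6 CPM in Young and 73.1 to 93.2 in Young PH. In Old they were 75.4 to 409.8 CPM and in Old PH 26.4 to 81.8. The part of cell types in these results was not tested. Tdo2 was at 551, 405 and 548 CPM against 879.9 to 1192 in Old (−1.11, SE 0.17, edgeR adjusted p = 0.000306), and Haao at 246, 253 and 291 CPM against 383 to 527 (−0.83, SE 0.17, edgeR adjusted p = 0.00159). Kmo rose to 433, 474 and 520.4 CPM from 248 to 261 (0.91, SE 0.13, edgeR adjusted p = 0.000141). In these 3 genes, and in Fah, the groups did not overlap, as was so for 42.6% of all tested genes. The calls of Tdo2, Haao and Kmo were kept in all 20 alternatives. Over all genes 37.6% were called, 22.5% higher and 15.1% lower, and the share of calls that were higher was 59.8%, or 84.3% with library totals. Hpd was at 1067, 799.9 and 1147 CPM in Old PH against 1074 to 2570.0 in Old (−0.83, SE 0.29, edgeR adjusted p = 0.0378), and Fah at 379.8, 403 and 407 against 426 to 691 (−0.50, SE 0.18, edgeR adjusted p = 0.0443). Those calls were lost in 6 and 11 of 20 alternatives, for both without Young 1, Old 1 or any 1 Old PH library, and with library totals the number of members called fell from 5 to 3.

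Kynu was at 180.4, 135 and 156 CPM in Old PH, around its level in Old (−0.04, SE 0.14, edgeR adjusted p = 0.846). Hgd was at 484, 446 and 579.9 CPM (−0.02, SE 0.19, edgeR adjusted p = 0.957) and Tat at 1379, 1358 and 1222 CPM (0.10, SE 0.26, edgeR adjusted p = 0.794). Gstz1 gave −0.29 (SE 0.18, edgeR adjusted p = 0.218). The 95% interval of the Kynu difference ran from −0.31 to 0.23 on the log2 scale, and that of Hgd from −0.40 to 0.36. In TPM, which was not tested, Hgd was at 451 ± 65.0 in Old and 579 ± 15.7 in Old PH, Kynu at 90.5 ± 12.9 and 113 ± 16.7, and Gstz1 at 507 ± 104 and 536 ± 19.1 (SD, n = 3), all higher after PH. Among the other tryptophan genes, Ido2 (−1.44, SE 0.16) and Afmid (−1.37, SE 0.32) were lower and Acmsd was higher (2.13, SE 0.26), with edgeR adjusted p of 0.00417 or less, and these were the 3 called of 14. Of 34 genes for other amino acids 14 were lower and 2 higher, and of 13 other tyrosine genes 2 were lower, Qdpr and Gchfr.

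After PH, 6 of the 9 genes were higher in Old PH than in Young PH and 0 were lower, where 29.7% of all genes were called higher and 32.4% lower (62.1% in all). Tdo2 differed most, at 405 to 551 CPM against 188 to 238, a log2 fold change of 1.29 (SE 0.18, edgeR adjusted p = 2.73e-05). Hgd (446 to 579.9 against 222 to 322 CPM, 0.82, SE 0.19), Gstz1 (421 to 488 against 238 to 281 CPM, 0.81, SE 0.18) and Haao (246 to 291 against 139.8 to 171 CPM, 0.77, SE 0.17) followed, each at an edgeR adjusted p of 0.00243 or less. These 4 calls were kept in all 20 alternatives. Fah (0.47, SE 0.18, edgeR adjusted p = 0.0379) and Kmo (0.41, SE 0.13, edgeR adjusted p = 0.0134) were also called, but Fah lost its call in 8 of 20 alternatives, among them the removal of any 1 library after PH. Kmo lost it with library totals, and its TPM were 355 ± 10.4 in Young PH and 348 ± 32.2 in Old PH. All 6 called genes had groups that did not overlap in CPM, as 69.2% of all tested genes had. The TPM of Tdo2, Hgd, Gstz1 and Haao were also higher in Old PH (286 ± 32.4, 579 ± 15.7, 536 ± 19.1 and 375 ± 21.9). Fah differed little in TPM, at 484 ± 8.5 in Young PH and 494 ± 53.8 in Old PH. Tat (−0.11, SE 0.26), Hpd (0.20, SE 0.29) and Kynu (0.32, SE 0.14) did not pass, Kynu with an edgeR adjusted p of 0.0566. In TPM, Hpd was lower in Old PH (1397 ± 142) than in Young PH (1660 ± 379), as was Kynu (113 ± 16.7 and 123 ± 11.6; SD, n = 3). Of the lists, 10 of 13 other tyrosine genes, 7 of 14 other tryptophan genes and 28 of 34 genes for other amino acids were higher, and 1, 1 and 2 were lower.

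Whether the response to PH itself differed between ages was tested as the difference of the 2 responses, which called 3.26% of all genes (2.27% higher, 0.983% lower). The comparisons of the 4 groups share libraries with each other, so that each gives its own values and none is a repeat of another. Kynu was the 1 member called: it fell by 0.97 on the log2 scale after PH in young mice and gave −0.04 in old mice, a difference of 0.93 (SE 0.19, edgeR adjusted p = 0.0244). The call was lost without Young 1, Young 3, Old 2, Young PH 2 or Young PH 3 (edgeR adjusted p 0.0561 to 0.0761), while the difference stayed between 0.82 and 1.05. For Tdo2 the difference was 0.65 (SE 0.24, edgeR adjusted p = 0.151) and for Kmo 0.38 (SE 0.18, edgeR adjusted p = 0.263), with 95% intervals of 0.17 to 1.13 and 0.02 to 0.73. The Kmo interval, a normal approximation, leaves out 0, but its unadjusted p by edgeR was 0.0597. The other 6 members had edgeR adjusted p from 0.452 to 0.922.

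**Figure D2:**
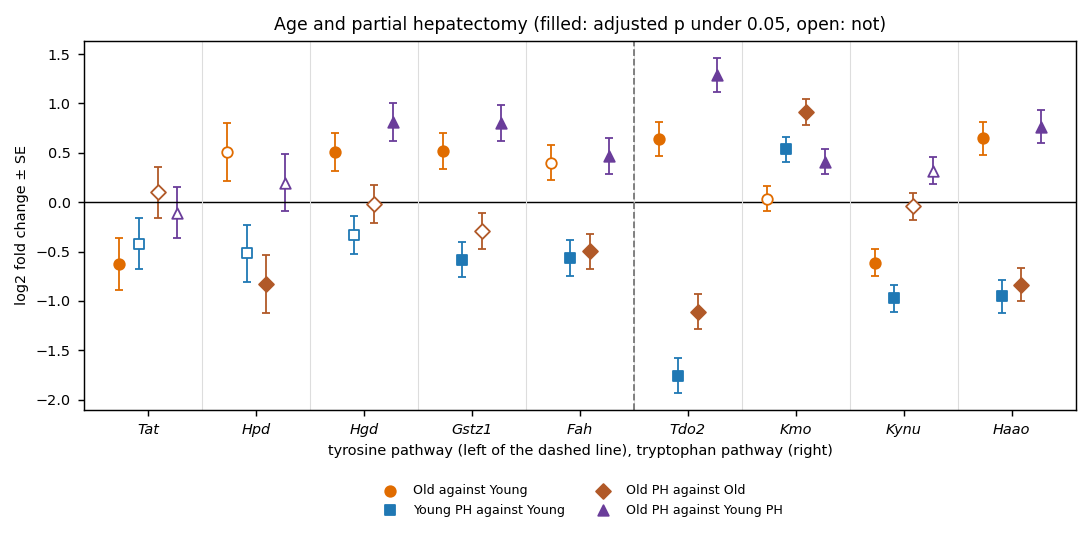
Log2 fold change with its SE for each gene in the 4 comparisons of young and old mice (TMM scale, n = 3 mice in each group). Filled symbols were called at an edgeR adjusted p under 0.05. Tdo2 has the largest changes of the 9 genes, −1.76 in young and −1.11 in old mice after PH, and Kmo is the member called higher after PH at both ages.

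Ordered by mean CPM over the groups, Tdo2 was highest in Old, followed by Young, Old PH and Young PH, and no neighbours in that order overlapped (highest over lowest 5.27). Kmo ran from Old PH through Young PH to Old and Young, with overlap only between Old and Young (1.93). Haao ran from Old through Young and Old PH to Young PH (3.03), with Young and Old PH overlapping. For Kynu, Young was apart from the rest and Old, Old PH and Young PH overlapped (1.96). Tat and Hpd overlapped between all neighbours in their order. The genes most like Tdo2 over the 12 libraries, by Pearson r of log2 CPM among 7818 genes with a mean log2 CPM of 3 or more, included Ugt2a3 (0.98) and Hsd11b1 (0.98). Those most like Tat were Ankrd33b (0.84), Edem1 (0.81) and Trp53inp1 (0.80). Hsd11b1, which regenerates active glucocorticoid, averaged 293 CPM in Young, 685 in Old, 48.7 in Young PH and 133 in Old PH.

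Within groups, some of the genes went up and down together from mouse to mouse. For the deviations of log2 CPM from the group means over the 12 libraries, the 10 pairs among the 5 tyrosine genes had a median Pearson r of 0.81, and the 6 pairs among the 4 tryptophan genes one of 0.15. Hpd, Hgd, Gstz1, Fah and Haao, a set chosen after the values were seen, had r from 0.78 to 0.98 in all 10 of their pairs. Tat had r from 0.05 to 0.18 with Hpd, Hgd, Gstz1 and Fah, the enzymes that follow it, and Tdo2 from −0.43 to 0.14 with the other members. The points share libraries, their depth and their scaling, so that these values describe the libraries and carry no test.

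**Figure D3:**
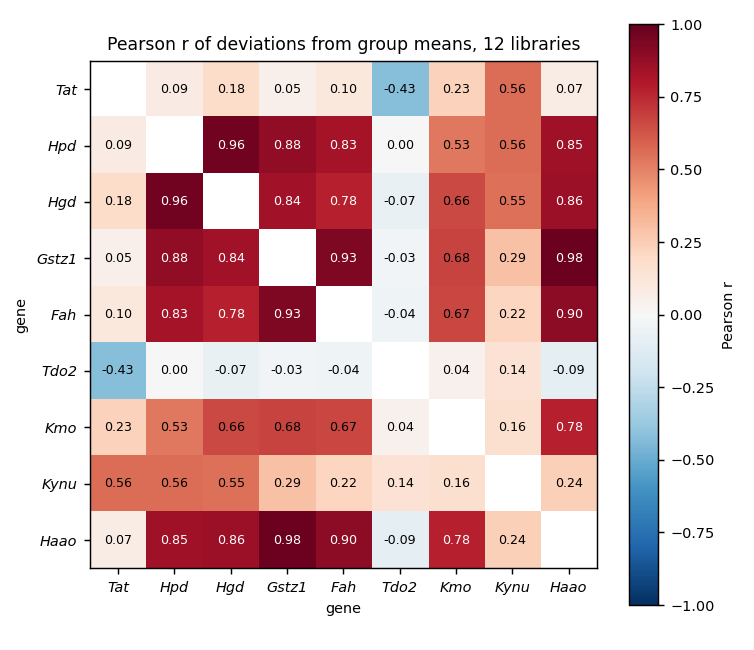
Pearson r between genes of the deviations of log2 CPM from the group means, over the 12 libraries of young and old mice (red positive, blue negative, no value on the diagonal). Hpd, Hgd, Gstz1, Fah and Haao form a block with r of 0.78 or more, and Tat and Tdo2 stand outside it.

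In the Smo-floxed table the lone Smo (+) library at 0 h stood apart before any comparison. Mitochondrial transcripts made up 22.5% of its gene counts (3.32% to 6.85% in the other 5 libraries), Malat1 3546 CPM (123 to 682), and its TMM factor was 0.749. Summed markers were highest in it for endothelial cells (599 CPM against 98.2 to 276), macrophages (409.7 against 85.7 to 329.8), stellate cells (202 against 66.6 to 194) and cholangiocytes (25.8 against 11.0 to 14.9). The hepatocyte sum was highest in it as well (76896 against 59275 to 73061). Some single markers within these sums were lowest in it, such as Col1a1 of stellate cells (3.71 against 5.49 to 68.0 CPM). The same held for Sox9 of cholangiocytes (4.03 against 7.64 to 10.2). Of the 5 hepatocyte markers, Alb (42083 against 42874 to 56710), Cps1 (782 against 2840 to 4855) and Hnf4a (297 against 612 to 713) were lowest in it. Apoa1 (24931 against 6831 to 11656) and Ttr (8802 against 2917.5 to 6300) were highest in it. The 9 genes took 0.28% of its gene counts and 0.529% to 0.742% of the others. With 1 mouse in this group, what is due to that mouse or library and what to the Smo (+) state before PH cannot be told apart, and the p values assume that it varies like the Smo (−) pairs, with 2 residual degrees of freedom in the fit.

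Before PH, all 9 genes were higher in both Smo (−) libraries than in the Smo (+) library, and 4 were called. Over all genes 27.4% were called, 13.9% higher and 13.5% lower, and 87% had groups that did not overlap. Tat was at 157 CPM in Smo (+) and 589.8 and 949.9 CPM in Smo (−), a log2 fold change of 2.30 (SE 0.38, edgeR adjusted p = 0.00535). Tdo2 was at 552 CPM in Smo (+) and 1646 and 1395 CPM in Smo (−) (1.46, SE 0.27, edgeR adjusted p = 0.00722), Kynu at 51.4 CPM against 155 and 111 (1.37, SE 0.25, edgeR adjusted p = 0.00771), and Kmo at 121 CPM against 282 and 199 (0.99, SE 0.26, edgeR adjusted p = 0.023). These calls were kept in all 11 alternatives. The remaining 5 genes gave 0.33 (Fah) to 0.68 (Hgd), with edgeR adjusted p from 0.0554 to 0.346. With library totals all 9 were called, and the share of all calls that were higher moved from 50.6% to 77.1%. Of 34 genes for other amino acids 25 were higher and 0 lower, led by Gldc of the glycine cleavage system (1.81, SE 0.24, edgeR adjusted p = 0.00341), and 5 of 12 other tyrosine genes and 5 of 13 other tryptophan genes were higher, with 0 lower in either.

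At 48 h after PH, 0 of the 9 genes was called between Smo (−) PH and Smo (+) PH by edgeR, where 0.125% of all 13654 genes were called (0.0366% higher, 0.0879% lower). The count was also 0 at an unadjusted p under 0.05 and by DESeq2. Tdo2 was at 643 CPM in Smo (+) PH and 676 and 632 in Smo (−) PH (0.02, SE 0.25), with a 95% interval from −0.46 to 0.51, and in TPM at 414 in Smo (+) PH and 405 ± 12.1 in Smo (−) PH (SD, n = 2). Tat was at 1715 CPM against 1405 and 1894 (−0.06, SE 0.33, interval −0.71 to 0.60), and Kynu at 142 CPM against 122 and 106 (−0.31, SE 0.23, interval −0.77 to 0.14). Of the 9 genes, 5 had both Smo (−) PH libraries on the same side of the Smo (+) PH library, compared with 72.6% of all genes.

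Within Smo (−) mice, 4 genes were lower and 2 higher after PH (Smo (−) PH against Smo (−)), where 30.2% of all genes were called, 16.0% higher and 14.2% lower. Of all calls 52.9% were higher, or 65.4% with library totals. Tdo2 went from 1646 and 1395 CPM to 676 and 632 (−1.22, SE 0.20, edgeR adjusted p = 0.00217) and Hpd from 2313 and 1866 to 948 and 873 (−1.20, SE 0.22, edgeR adjusted p = 0.00382). Both calls held in all 13 alternatives. Haao went from 550.0 and 459 CPM to 298 and 252 (−0.87, SE 0.19, edgeR adjusted p = 0.0078) and Fah from 674 and 519 to 411 and 353 (−0.64, SE 0.20, edgeR adjusted p = 0.0389). Tat rose from 589.8 and 949.9 CPM to 1405 and 1894 (1.10, SE 0.28, edgeR adjusted p = 0.0153), and Kmo from 282 and 199 to 389 and 356 (0.63, SE 0.20, edgeR adjusted p = 0.042). Groups did not overlap in any of these 6 or in Gstz1, as was so for 67.6% of all tested genes. Without Smo (−) PH 2 the calls of Haao, Fah, Tat and Kmo were lost and 2 members stayed called, while without the lone Smo (+) library all 6 calls were made. Without Smo (−) 1 the calls of Tat and Fah were lost (edgeR adjusted p = 0.0667 and 0.131). Kmo lost its call without Smo (−) 2 or Smo (−) PH 1 (edgeR adjusted p = 0.14 and 0.163), and Fah without Smo (−) PH 1 or with library totals (edgeR adjusted p = 0.0876 and 0.0735). Hgd, Gstz1 and Kynu did not pass, with −0.12, −0.47 and −0.22, and the mean TPM of Hgd was 460.3 in Smo (−) and 460.5 in Smo (−) PH.

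**Figure D4:**
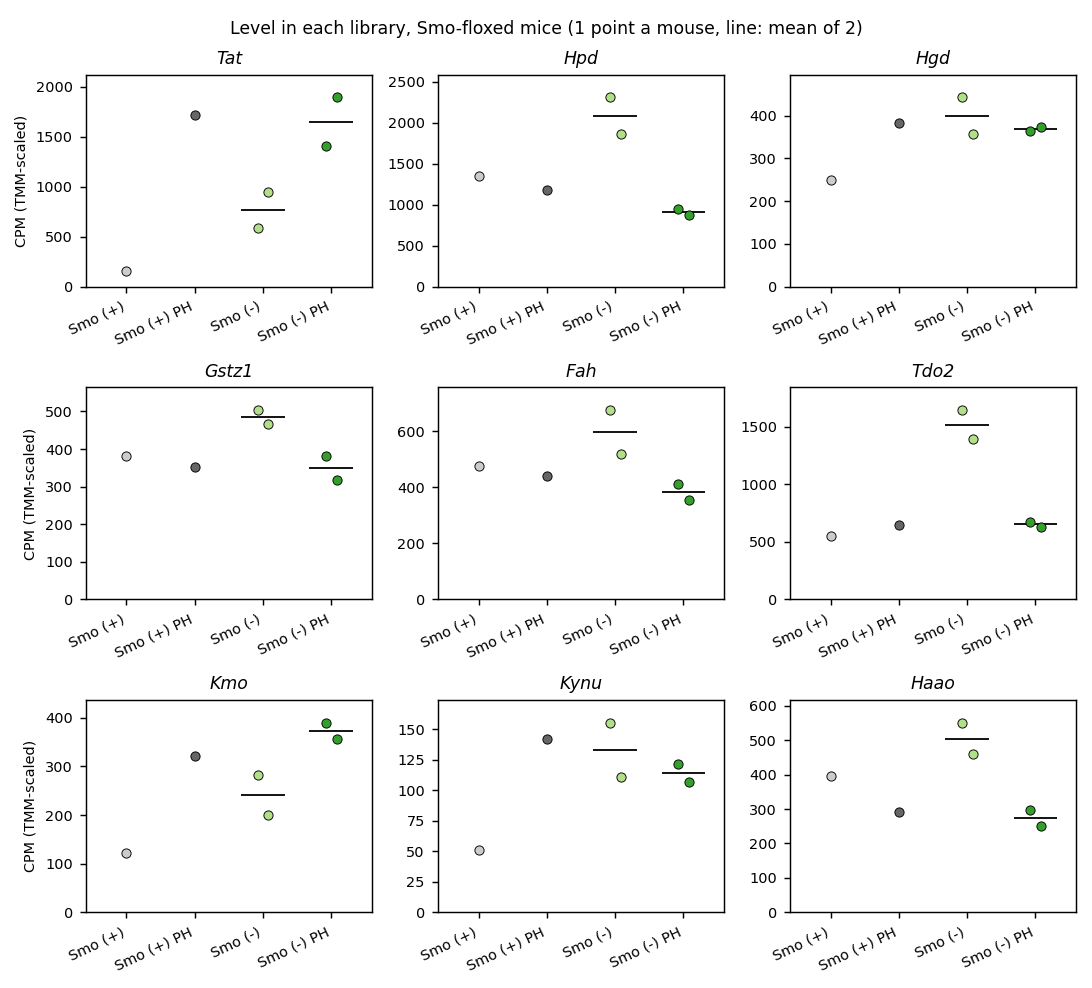
Level of each of the 9 genes in CPM (TMM-scaled, linear axis from 0) in the 6 libraries of Smo-floxed mice, 1 point for each mouse, with a line at the mean where there are 2 mice. The Smo (+) point before PH is below both Smo (−) points in all 9 panels, and for Tat it is at 157 CPM against 589.8 to 1894 CPM in the other 5 libraries.

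For the lone Smo (+) mice only values can be given. In TMM-scaled CPM, Tat was 10.9 times as high in Smo (+) PH as in Smo (+), Kynu 2.76 times and Kmo 2.65 times. On that scale these 3 of the 9 members were above a 2-fold change, as were 32.6% of all genes (14.1% higher, 18.5% lower). Counting error alone gave 95% intervals on the log2 scale of 3.39 to 3.52 for Tat, 1.34 to 1.59 for Kynu and 1.33 to 1.49 for Kmo. Hgd was 1.53 times and Tdo2 1.16 times as high, or 1.17 and 0.77 on the log2 scale with library totals. Haao, Hpd, Gstz1 and Fah were 0.734 to 0.93 times as high, values that turned above 1 with library totals (Haao 0.10 and Hpd 0.36 on the log2 scale). In TPM these 4 were also higher in Smo (+) PH than in Smo (+), Hpd at 1857 against 1161, Fah at 615 against 362, Gstz1 at 469 against 278 and Haao at 464 against 346. Hgd (498 against 177 TPM) and Tdo2 (414 against 194 TPM) were above a 2-fold change in TPM.

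The test of the difference between the PH responses of Smo (−) and Smo (+) rests on that same lone library. It called 10.7% of all genes (4.60% higher, 6.14% lower) and 3 members, all with a lower response in Smo (−): Tat (−2.35, SE 0.48, edgeR adjusted p = 0.0275), Kynu (−1.68, SE 0.34, edgeR adjusted p = 0.0265) and Tdo2 (−1.44, SE 0.35, edgeR adjusted p = 0.0384). The Tdo2 call was lost without either Smo (−) PH library (edgeR adjusted p 0.0603 and 0.0787). With library totals 6 members and 23.1% of all genes were called, and 17.4% of all calls were higher in place of 42.8%. The 2 comparisons with Smo (+) at 0 h and this difference share that library, so that they are not independent of each other.

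**Figure D5:**
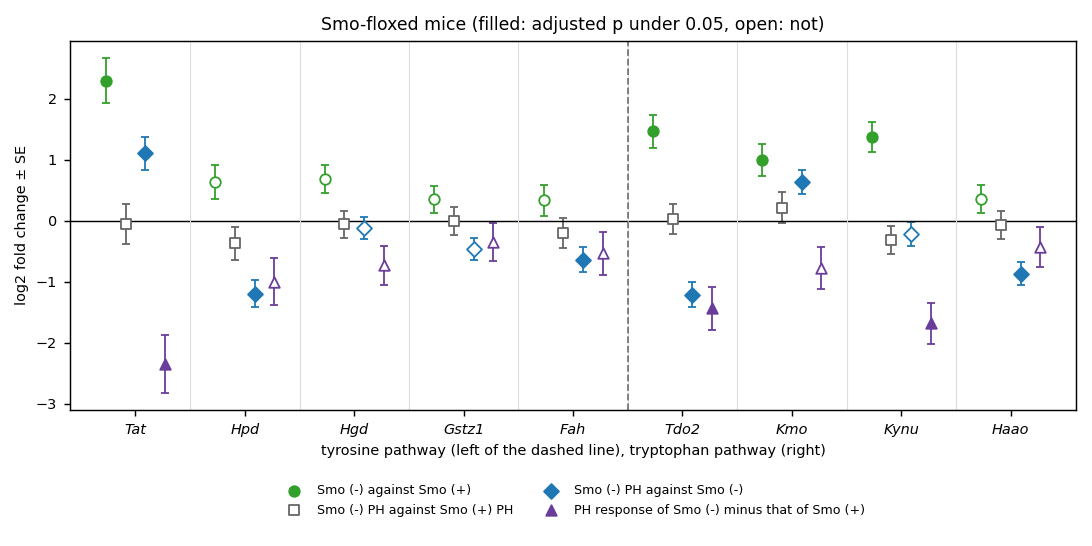
Log2 fold change with its SE for each gene in 3 comparisons of Smo-floxed mice, and the difference between the PH responses of Smo (−) and Smo (+) (TMM scale, 1 Smo (+) and 2 Smo (−) mice at each time). Filled symbols were called at an edgeR adjusted p under 0.05. Between Smo (−) PH and Smo (+) PH the values lie from −0.37 to 0.21 with no call.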

How the data were processed

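Read counts per gene were deposited by the authors as HTSeq counts, made after Trim Galore, STAR 2.5.0c (mm10), SAMtools and removal of duplicates with Picard. The annotation release and strand setting are not given in the sources used here. Rows that name no gene were left out of library sizes, and pairs outside genes made up 2.03% to 33.9% of counted pairs. All 18 libraries were used and 0 sample columns were left unused.

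From the counts, genes were kept by filterByExpr (minimum count 10, minimum total 15), scaled by TMM and tested with edgeR 4.0.16 (R 4.3.3) by quasi-likelihood, in a fit of 12 libraries (14554 genes, 8 residual degrees of freedom) and another of 6 (13654 genes, 2 residual degrees of freedom), with Benjamini-Hochberg adjustment and a threshold of 0.05. The pipeline was tested on simulated data. For ratios of 1 library to 1 library, the share of all genes above 2-fold was taken with 0.1 added to CPM. The ratios of the members had nothing added, and their intervals cover counting error only.

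All 9 genes were examined in every comparison, though not each of them is given with a value in the text. Of the other pathway lists, up to 4 called genes with the smallest adjusted p in a comparison were named. Some genes that this rule names are not reported here. Members and lists were chosen with earlier results of these data known. Alternatives were DESeq2 1.42.0, RLE size factors, no filter, fits of the compared groups only, removal of mitochondrial genes and Malat1, a replicate block and the removal of each library in turn. Library totals in place of TMM, protein-coding genes only, and a fit without the Smo (+) library at 0 h were added after seeing the data.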

Additional observations from a re-analysis of the deposited data

Results flagged for a closer look

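Between ages, the test of the difference in response to PH (Old minus Young, log2 scale) called 3.26% of all genes, among them 1 member and 3 of the listed genes. Kynu gave 0.93 (SE 0.19, edgeR adjusted p = 0.0244), and lost its call in 5 of 19 alternatives. Of the listed genes, Ddc, the aromatic amino acid decarboxylase, gave 1.53 (SE 0.25, edgeR adjusted p = 0.0126), with a log2 fold change of −1.12 in young and 0.41 in old mice. Ftcd, of histidine breakdown, gave 0.85 (SE 0.18, edgeR adjusted p = 0.0244), and Pcca, a propionyl-CoA carboxylase subunit, 0.66 (SE 0.16, edgeR adjusted p = 0.0387).

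Between Smo (−) and Smo (+), the responses differed for Tat by −2.35 (SE 0.48, edgeR adjusted p = 0.0275), for Kynu by −1.68 (SE 0.34, edgeR adjusted p = 0.0265) and for Tdo2 by −1.44 (SE 0.35, edgeR adjusted p = 0.0384). The same test called 10.7% of all genes, and called lower 4 of 12 other tyrosine, 5 of 13 other tryptophan and 14 of 34 other amino acid genes. All of these rest on the lone Smo (+) library at 0 h.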

How the results depend on the processing

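Of 37 called values of the 9 genes, 22 kept their call in every alternative and 0 changed sign. Over all alternatives 24 of 1296 values reversed, and none of them was called. The cause of each change was not tested.

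With library totals, which shifted the median log2 fold change of all genes by 0.25 after PH in young and 0.34 in old mice, −0.20 between ages before PH and −0.11 after it, by 0.42 (Smo (−) against Smo (+)), 0.12 (Smo (−) PH against Smo (−)) and −0.42 (difference between the Smo responses), 4 members were called in place of 6 in Old against Young, in Young PH against Young and in Old PH against Young PH, 5 in place of 6 in Smo (−) PH against Smo (−), 3 in Old PH against Old, 9 in Smo (−) against Smo (+) and 6 in the difference between the Smo responses. Values that reversed were −0.16 for Kmo in Old against Young and 0.32 for Hgd, 0.047 for Gstz1 and 0.29 for Kynu in Old PH against Old. Gstz1 in Smo (−) PH against Smo (+) PH was 0.0021 with DESeq2 and with RLE size factors and 0.0059 in a fit of those groups alone.

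Leaving out 1 library at a time gave 3 to 7 members called in Old against Young (3 without Young 2), 4 to 6 in Young PH against Young, 3 to 6 in Old PH against Old (3 without Young 1, Old 1 or any 1 Old PH library), 5 to 7 in Old PH against Young PH, 0 to 1 in the difference between ages, 4 to 5 in Smo (−) against Smo (+), 0 in Smo (−) PH against Smo (+) PH, 2 to 6 in Smo (−) PH against Smo (−) (2 without Smo (−) PH 2) and 2 to 4 in the difference between the Smo responses. Uncalled values that crossed 0 ranged in Old against Young from −0.061 to 0.14 (Kmo), in Old PH against Old from −0.11 to 0.18 (Tat), −0.22 to 0.075 (Hgd) and −0.14 to 0.074 (Kynu), and in Old PH against Young PH from −0.30 to 0.33 (Tat). The difference between ages ranged from −0.13 to 0.21 (Fah) and −0.044 to 0.26 (Haao), Smo (−) PH against Smo (−) from −0.28 to 0.045 (Hgd) and −0.45 to 0.046 (Kynu), and Smo (−) PH against Smo (+) PH from −0.29 to 0.14 (Tat), −0.023 to 0.074 (Tdo2), −0.14 to 0.12 (Gstz1) and −0.20 to 0.041 (Haao).

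The share of all genes called moved by more than 1.5 times for the difference between ages (3.26%, DESeq2 7.74%, library totals 1.87%, 1 library left out 0.411% to 5.39%), without the filter for Young PH against Young (21.4%) and Old PH against Old (23.3%), for Smo (−) PH against Smo (+) PH (0.125%, DESeq2 0.513%, no filter 0.912%, library totals 0.308%, 1 library left out 0.206% to 0.767%), for Smo (−) PH against Smo (−) without Smo (−) PH 2 (18.4%) and for the difference between the Smo responses (10.7%, library totals 23.1%, 1 library left out up to 27.7%). DESeq2 moved the share of higher calls in the difference between ages from 69.8% to 56.7%.

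Replicate numbers were not shown to pair the mice: 2 of 18 same-numbered pairs had a correlation of deviations over 0.1 (−0.112 to 0.226), the Smo (−) pair had −0.0394, and in 10 of 36 cases a library correlated best, within another group, with its own number. With the replicate block, 5, 6, 5 and 6 members were called in the 4 comparisons of young and old mice and 1 in the difference, and 6 in Smo (−) PH against Smo (−).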
